A study of Rattus norvegicus with 12 samples.

Results

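The genes followed here make cholesterol, control its synthesis, take it up and release it. They were named as 33 genes in 5 roles: synthesis before squalene, the steps from squalene to cholesterol, control of synthesis by sterol regulatory element binding proteins (SREBPs), uptake and lysosomal handling, and esterification and export. Squalene synthase (Fdft1), which makes squalene itself, was counted with the steps from squalene to cholesterol throughout. A probe set was taken when the platform annotation gave it a single gene symbol, current or former, that stands on this list. This found 31 of the 33 genes with 54 probe sets, out of 14217 genes with such a probe set in the series. Hmgcs1 and Npc1 were not analysed here. The genes and the lists used below were chosen with earlier results of these data known. The shares over all genes printed beside their counts are therefore a description and not an independent test. All 31 genes had a probe set bright enough to be tested, and the brightest probe set on average stands for its gene.

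4 groups of neural stem cells (NSCs), dividing cells able to form neurons, astrocytes and oligodendrocytes, were compared with 3 arrays each. They were differentiated NSCs of the spinal cord, proliferative NSCs of the spinal cord, differentiated NSCs of the brain and proliferative NSCs of the brain. All donors were Sprague Dawley rats between postnatal days 3 and 5, and the labels name no genetic change and no agent in any group. The titles write the differentiated groups as fenhua, a Chinese word for differentiation in Latin letters, and the labels do not say how the cells were differentiated. No label ties the arrays of a group to separate cultures or animals, so every p-value covers only spread among the arrays, possibly technical. Levels are log2 signals on Affymetrix Rat230_2 arrays, whose probes lie near the 3′ end of a transcript. A change is a difference of log2 group means, each with its standard error, SE. A gene is said to rise, fall or differ where limma's adjusted p was under 0.05 over all 20834 probe sets tested.

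Arrays of a group correlated with each other at 0.93 to 0.95 over all probe sets, and arrays of different groups at 0.84 to 0.91. Markers of cell types differed between the groups, and each list is given as its mean log2 signal per array. Of 12 oligodendrocyte markers 11 were measured, and they averaged 10.5 to 10.6 in differentiated spinal cord, 10.6 to 10.9 in proliferative spinal cord, 9.81 to 10.1 in differentiated brain and 5.59 to 7.01 in proliferative brain cultures. Above the array's 40th percentile lay 11 of them on all spinal cord arrays, 9 or 10 on differentiated brain arrays and 6 on proliferative brain arrays. The 9 measured of 10 astrocyte markers averaged 10.7 to 10.8 in differentiated and 9.87 to 10.4 in proliferative spinal cord, against 12.6 to 12.7 in differentiated and 9.72 to 10.2 in proliferative brain cultures. The 10 markers of fibroblasts, meninges and mural cells averaged 12.1 to 12.2 in differentiated spinal cord, 9.60 to 10.4 in proliferative spinal cord, 5.98 to 6.33 in differentiated brain and 6.18 to 6.49 in proliferative brain cultures. Microglia and macrophage markers, 12 of 12 measured, averaged 7.29 to 7.57 in differentiated and 7.74 to 8.82 in proliferative spinal cord, against 6.39 to 6.72 in differentiated and 4.96 to 5.80 in proliferative brain cultures. The 10 neuron markers averaged 6.55 to 7.16 in differentiated and 8.15 to 8.73 in proliferative spinal cord, against 7.80 to 8.06 in differentiated and 8.90 to 9.99 in proliferative brain cultures.

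The 7 measured of 8 neural stem and progenitor markers averaged 9.35 to 9.64 in differentiated and 10.28 to 10.4 in proliferative spinal cord, against 11.26 to 11.3 in differentiated and 10.7 to 11.27 in proliferative brain cultures. In brain 4 of them rose with differentiation (Sox2, Vim, Fabp7 and Hes5) and Nes fell, while in spinal cord 4 fell (Nes, Sox2, Hes5 and Pax6) and Vim rose. The 6 measured of 7 oligodendrocyte precursor markers averaged 9.58 to 10.1 in differentiated and 11.25 to 11.4 in proliferative spinal cord, against 10.8 in differentiated and 8.73 to 8.99 in proliferative brain cultures. The labelled states did not order the proliferation markers alike in both tissues. Of 7 such genes 3 were higher and 1 lower in differentiated than in proliferative brain cultures, while 2 were lower and none higher in differentiated spinal cord cultures. Mki67 had 10.46, 10.74 and 10.79 in differentiated and 10.11, 10.01 and 10.46 in proliferative brain cultures (adjusted p = 0.0737). Replicate 1 of the proliferative spinal cord stood apart from the other two arrays of its group, with a proliferation mean of 11.7 against 10.7 and 10.9. Several results that lean on it, though not all, are also given without it. The control probe set for 5S ribosomal RNA read 8.09 to 8.75 in differentiated and 8.65 to 9.38 in proliferative spinal cord, against 7.85 to 8.19 in differentiated and 9.50, 11.02 and 9.61 in proliferative brain cultures. Replicate 2 of the proliferative brain, the array with 11.02, also had the highest oligodendrocyte mean of its group, at 7.01 against 5.72 and 5.59. Whether different cell mixtures, or different RNA per cell, account for any change below cannot be told apart in bulk RNA, and the part of the marker lists and of the 5S reading in the results was not tested.

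Cholesterol is built from acetyl units through mevalonate and squalene by enzymes of the cytosol and endoplasmic reticulum. When sterols are scarce, SCAP carries the SREBPs to the Golgi, where they are cut and released to switch on synthesis and uptake genes, while the INSIG proteins hold the complex back. When sterols or their oxidised forms abound, liver X receptors switch on ABCA1, ABCG1, APOE and Srebf1. In the brain, cholesterol is made locally, astrocytes load it onto APOE particles, and oligodendrocytes need large amounts of it for myelin.

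The proliferative brain cultures stood at one end of most of these genes. Of the 17 synthesis genes measured, 14 had their highest group mean there, and all 6 esterification and export genes had their lowest. The exceptions among the synthesis genes were Lss, Tm7sf2 and Ebp. Among the export genes Nr1h3 was faint on all proliferative brain arrays and was called in no contrast, so its place says little. These counts of highest and lowest means were not set against all genes tested. As a mean over the 17 synthesis genes of each gene's deviation from its own mean over the 12 arrays, the differentiated brain arrays stood at -0.10, -0.23 and -0.23 log2 units and the proliferative ones at 0.30, 0.58 and 0.54. The same measure was -0.06, -0.13 and -0.13 on the differentiated and 0.05, -0.32 and -0.27 on the proliferative spinal cord arrays. For the 6 esterification and export genes it was 0.57 to 0.70 on the differentiated and 0.36 to 0.74 on the proliferative spinal cord arrays, 0.23 to 0.26 on the differentiated brain arrays and -1.59 to -1.42 on the proliferative brain arrays. The brain proliferative arrays therefore lay outside the range of the other 9 arrays in both sets, above in one and below in the other.

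**Figure D1:**
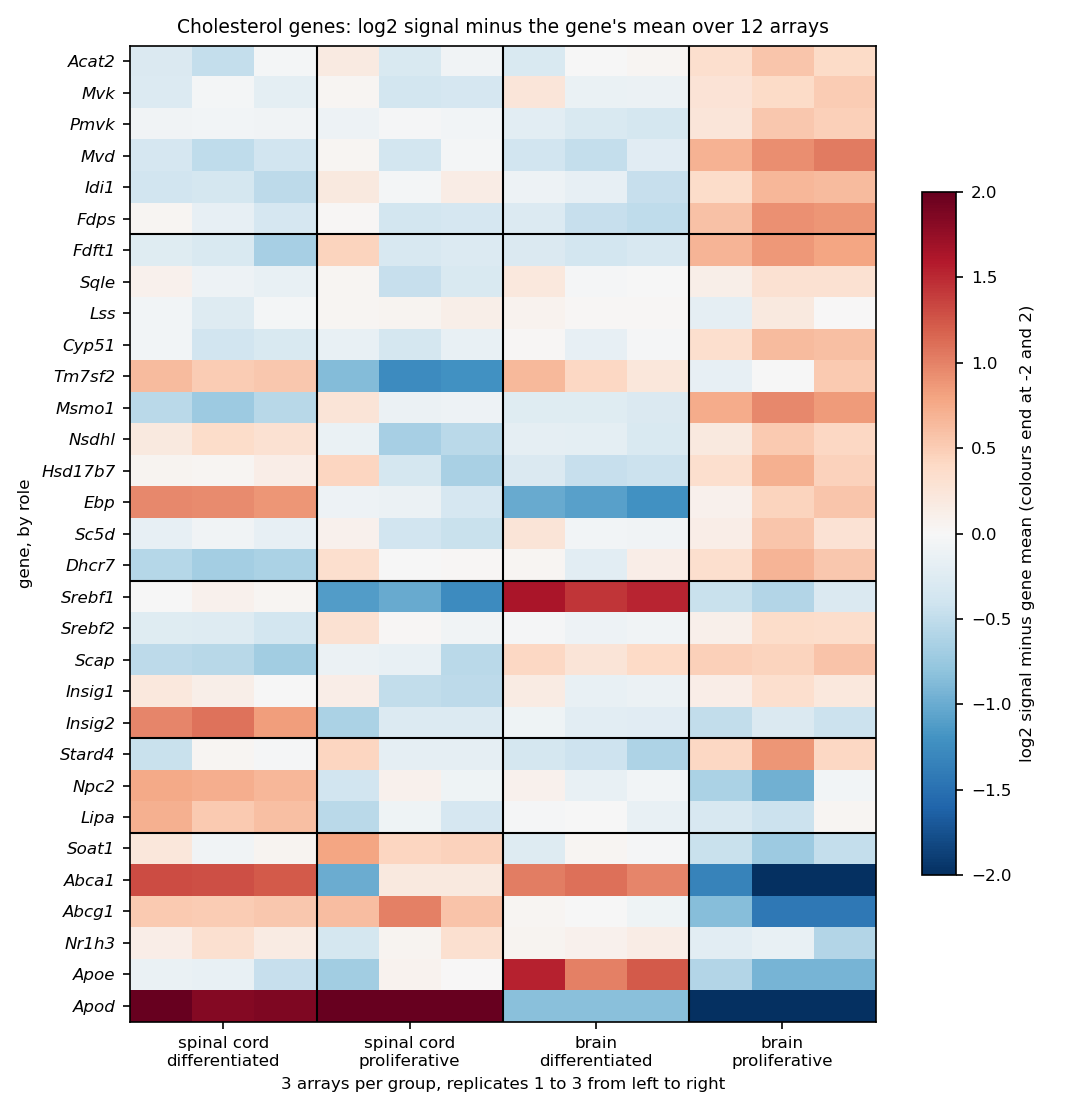
Each row is 1 of the 31 measured genes in the order of the 5 roles, parted by black lines, and each column is 1 of the 12 arrays in 4 groups of 3, with colour giving the log2 signal minus the gene's mean over the 12 arrays. The 3 brain proliferative columns on the right are red for most synthesis genes and blue for the export genes at the bottom, and colours end at -2 and 2, which Abca1 and Apod pass.

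In brain, differentiated cultures had lower sterol synthesis transcripts and higher export transcripts than proliferative cultures. Of the 31 genes 15 fell and 7 rose, where 28.5% of all 11218 genes tested fell and 24.1% rose. The 6 genes before squalene all fell (Acat2, Mvk, Pmvk, Mvd, Idi1 and Fdps), as did 7 of the 11 from squalene to cholesterol, and none of these 17 rose. Their median log2 change was -0.60, against -0.06 over all genes tested. In esterification and export 5 of 6 genes rose and none fell, with a median of 1.64. With each array centred on its median, which moved the median of all genes to -0.21 and the share of rises among their calls to 34.4% against 45.8% as deposited, 16 members fell and 5 rose. Without replicate 2 of the proliferative brain, 13 fell and 5 rose. Oligodendrocyte markers moved with these changes, 10 of 11 rising in differentiated brain cultures, as did 5 of 6 oligodendrocyte precursor markers, 8 of 9 astrocyte markers and 6 of 10 tested microglia and macrophage markers, while 7 of 10 neuron markers fell. Against these, 1 microglia and macrophage marker fell (Cd68) and 1 neuron marker rose (Map2).

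In spinal cord, synthesis genes were called in both directions with differentiation, in each no more often than genes over all. Of the 31 genes 9 rose and 6 fell, where 20.9% of all genes rose and 22.6% fell. Among the 17 synthesis genes 3 rose (Tm7sf2, Nsdhl and Ebp) and 3 fell (Idi1, Msmo1 and Dhcr7), both under those shares. The synthesis median was -0.01, against -0.04 over all genes. In the other roles 6 genes rose (Srebf1, Insig1, Insig2, Npc2, Lipa and Abca1) and 3 fell (Srebf2, Scap and Soat1). Without replicate 1 of the proliferative spinal cord the counts were 11 higher and 4 lower. With each array centred on its median, 9 were higher and 3 lower. Of the fibroblast, meninges and mural markers 8 of 10 rose in differentiated spinal cord cultures, and 1 of 11 oligodendrocyte markers fell while none rose. Among oligodendrocyte precursor markers 4 of 6 fell and 1 rose, 5 of 10 neuron markers and 5 of 10 tested microglia and macrophage markers fell, and of 9 astrocyte markers 6 rose and 3 fell.

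The difference between both responses, spinal cord minus brain, was tested directly. It was positive for 14 genes and negative for 6, where 23.7% of all genes were called positive and 21.2% negative. All 10 synthesis genes called were positive, and 5 of 6 export genes were negative, with medians of 0.55 and -1.55 against 0.05 over all genes. Without proliferative spinal cord replicate 1 it was positive for 17 and negative for 6, with Mvk (0.57, adjusted p = 0.023), Sqle (0.51, adjusted p = 0.0108) and Sc5d (0.56, adjusted p = 0.0152) added. Mvk was also called without brain differentiated replicate 1 (0.56, adjusted p = 0.0452). Without proliferative brain replicate 2 it was positive for 11 and negative for 6. Centring each array on its median moved the median of all genes to 0.29 and the share of positive calls among all called genes to 66.9%, against 52.7% as deposited, and gave 18 positive and 6 negative members.

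**Figure D2:**
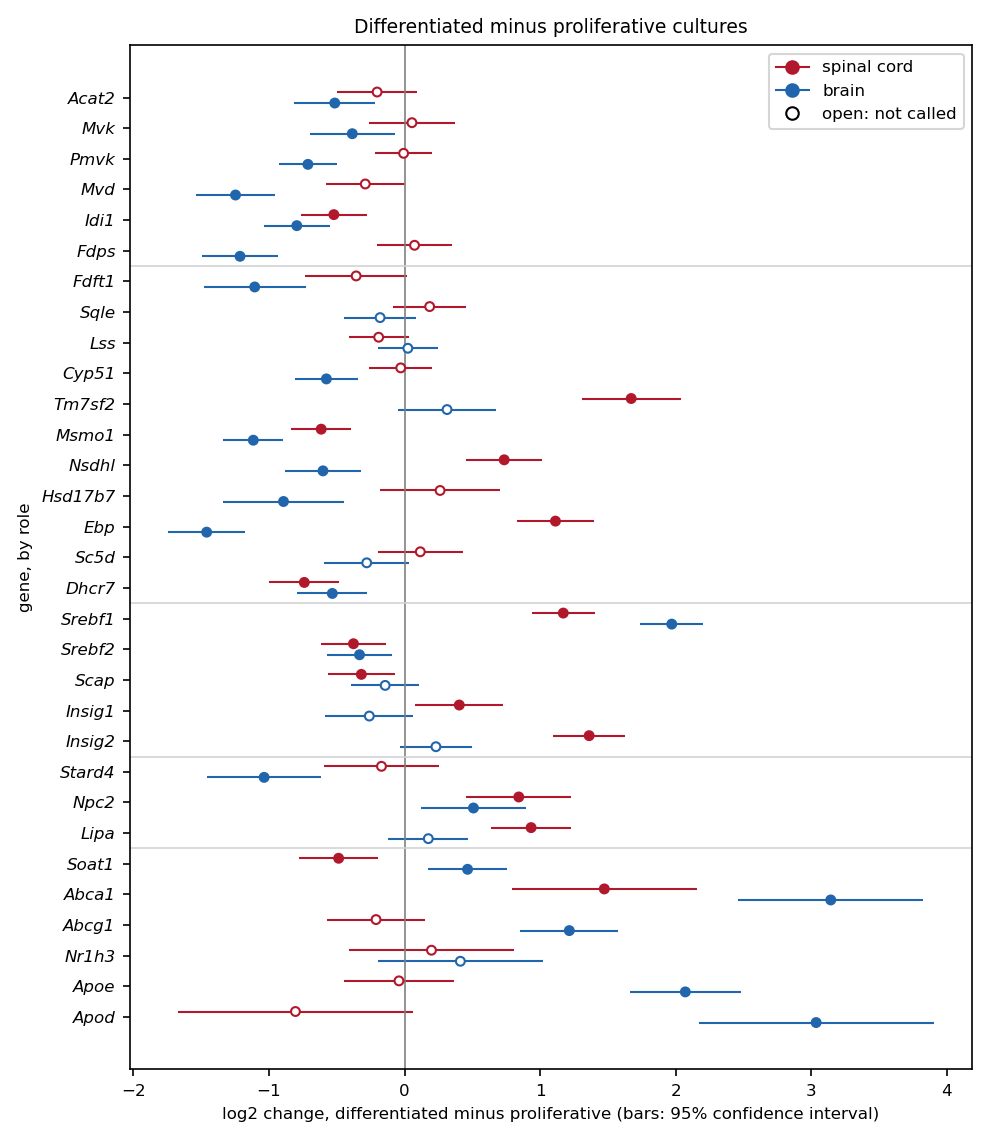
Each gene has its log2 change, differentiated minus proliferative, in spinal cord (red, above) and brain (blue, below), with 95% confidence intervals from the limma model, and open circles mark changes that were not called. Brain points lie left of 0 for 15 of 17 synthesis genes and right of 0 for all 6 export genes, while spinal cord points spread on both sides.

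Before squalene, farnesyl diphosphate synthase (Fdps), which joins the isoprene units that lead to squalene, had log2 signals of 12.73, 12.53 and 12.36 on the differentiated and 12.71, 12.33 and 12.36 on the proliferative spinal cord arrays, and of 12.42, 12.22 and 12.18 on the differentiated and 13.27, 13.61 and 13.58 on the proliferative brain arrays. The proliferative brain arrays all lay above the other 9. Fdps fell 2.32-fold in brain (log2 change -1.21, SE 0.13, adjusted p = 5.65e-06), and its log2 change in spinal cord was 0.07 (95% confidence interval -0.20 to 0.35). Spinal cord minus brain, the responses differed by 1.29 (SE 0.18, adjusted p = 8.87e-05). Fdps is shown with the 300 bases around its transcription start, as the early gene with the largest called difference of responses. The window is chr2:176804767-176805066 on the minus strand of the RefSeq GRCr8 assembly, printed in the gene's direction, with capitals on the CCAAT boxes and the GC box that a search found:
Fdps promoter: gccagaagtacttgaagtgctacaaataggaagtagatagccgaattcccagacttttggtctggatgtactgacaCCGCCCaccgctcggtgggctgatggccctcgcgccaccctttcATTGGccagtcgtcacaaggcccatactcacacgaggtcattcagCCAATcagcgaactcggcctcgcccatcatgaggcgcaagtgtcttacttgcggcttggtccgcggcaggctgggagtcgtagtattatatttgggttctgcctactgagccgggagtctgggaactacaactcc

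Mevalonate diphosphate decarboxylase (Mvd), which makes isopentenyl diphosphate, had 9.02, 8.86 and 8.98 on the differentiated and 9.40, 9.0 and 9.33 on the proliferative spinal cord arrays, and 8.98, 8.88 and 9.14 on the differentiated and 10.05, 10.29 and 10.39 on the proliferative brain arrays. It fell 2.37-fold in brain (log2 change -1.25, SE 0.14, adjusted p = 6.75e-06), with no overlap between the states. In spinal cord the states overlapped, with a log2 change of -0.29 (adjusted p = 0.108), which was called without proliferative spinal cord replicate 2 (-0.41, adjusted p = 0.0313). Isopentenyl diphosphate isomerase (Idi1) had 12.32, 12.36 and 12.19 on the differentiated and 12.91, 12.68 and 12.85 on the proliferative spinal cord arrays, and 12.61, 12.55 and 12.25 on the differentiated and 13.07, 13.38 and 13.34 on the proliferative brain arrays. Idi1 fell in both tissues without overlap, by 0.52 in spinal cord (SE 0.11, adjusted p = 0.00217) and by 0.79 in brain (SE 0.11, adjusted p = 6.4e-05) on the log2 scale. The 2 changes of Idi1 differed by 0.27 (95% confidence interval -0.07 to 0.61), which was not called.

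Phosphomevalonate kinase (Pmvk) had 10.04, 10.06 and 10.04 on the differentiated and 10.004, 10.08 and 10.06 on the proliferative spinal cord arrays, and 9.90, 9.80 and 9.75 on the differentiated and 10.35, 10.65 and 10.59 on the proliferative brain arrays. It fell by 0.71 in brain on the log2 scale (SE 0.10, adjusted p = 5.2e-05), and its change in spinal cord was -0.01 (95% confidence interval -0.22 to 0.20). Mevalonate kinase (Mvk), the enzyme before it, had 8.97, 9.21 and 9.05 on the differentiated and 9.29, 8.87 and 8.90 on the proliferative spinal cord arrays, and 9.49, 9.11 and 9.12 on the differentiated and 9.51, 9.62 and 9.74 on the proliferative brain arrays. Mvk fell by 0.39 in brain (SE 0.15, adjusted p = 0.0441) with adjacent but separate states. That call was lost when any of 7 arrays was left out, with adjusted p from 0.0518 to 0.15, namely the 3 brain proliferative arrays, brain differentiated replicates 2 and 3, and spinal cord differentiated replicates 1 and 3. A second Mvk probe set also missed it (-0.44, adjusted p = 0.0949). Acat2, a thiolase that joins acetyl units, ranged from 11.55 to 12.58 over the 12 arrays and fell by 0.51 in brain (SE 0.14, adjusted p = 0.00762).

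From squalene to cholesterol, emopamil binding protein (Ebp), a sterol isomerase, moved in opposite directions in the tissues. It had 10.25, 10.23 and 10.16 on the differentiated and 9.18, 9.17 and 8.96 on the proliferative spinal cord arrays, and 8.29, 8.20 and 8.08 on the differentiated and 9.38, 9.73 and 9.84 on the proliferative brain arrays. The 4 groups did not overlap at any point. Ebp rose 2.16-fold in spinal cord (log2 change 1.11, SE 0.13, adjusted p = 1.67e-05) and fell 2.75-fold in brain (log2 change -1.46, SE 0.13, adjusted p = 1.22e-06). Between the tissues the responses differed by 2.57 (SE 0.19, adjusted p = 2.19e-07), the largest positive one of the 31 genes.

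Tm7sf2, a sterol reductase, had 10.94, 10.81 and 10.85 on the differentiated and 9.44, 9.05 and 9.10 on the proliferative spinal cord arrays, and 10.95, 10.72 and 10.53 on the differentiated and 10.14, 10.29 and 10.83 on the proliferative brain arrays. It was low on the proliferative spinal cord arrays alone, and rose 3.19-fold in spinal cord (log2 change 1.67, SE 0.17, adjusted p = 4.42e-06). In brain its states overlapped (log2 change 0.31, adjusted p = 0.147), and without brain proliferative replicate 3 the change was called (0.52, adjusted p = 0.012). Nsdhl, a sterol dehydrogenase that removes methyl carbons, likewise rose in spinal cord, with 10.87, 11.04 and 10.99 in differentiated and 10.55, 10.01 and 10.14 in proliferative cultures (log2 change 0.74, SE 0.13, adjusted p = 0.000533). In brain Nsdhl fell, with 10.49, 10.49 and 10.38 in differentiated and 10.88, 11.20 and 11.09 in proliferative cultures (log2 change -0.60, SE 0.13, adjusted p = 0.00192). A second Nsdhl probe set had the brain call, and its spinal cord change of 0.25 was not called (adjusted p = 0.111).

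Msmo1, a methylsterol oxidase, had 12.19, 12.0005 and 12.16 on the differentiated and 12.98, 12.60 and 12.62 on the proliferative spinal cord arrays, and 12.48, 12.47 and 12.43 on the differentiated and 13.46, 13.68 and 13.58 on the proliferative brain arrays. Both states were apart in both tissues, and Msmo1 fell by 0.61 in spinal cord (SE 0.10, adjusted p = 0.000313) and by 1.12 in brain (SE 0.10, adjusted p = 1.47e-06) on the log2 scale. The fall was larger in brain by 0.50 (SE 0.14, adjusted p = 0.0134). Squalene synthase (Fdft1), the first enzyme committed to sterols, had 10.24, 10.18 and 9.82 on the differentiated and 10.93, 10.16 and 10.21 on the proliferative spinal cord arrays, and 10.19, 10.12 and 10.17 on the differentiated and 11.17, 11.35 and 11.28 on the proliferative brain arrays. Fdft1 fell 2.15-fold in brain (log2 change -1.10, SE 0.17, adjusted p = 0.000162), and its change in spinal cord was -0.36 (adjusted p = 0.123). Fdft1 was called lower in spinal cord without proliferative spinal cord replicate 2 (-0.49, adjusted p = 0.0487). Without proliferative spinal cord replicate 1, the high array of its group, Fdft1 changed by -0.11 and was not called. Its difference of responses of 0.75 (adjusted p = 0.0263) was lost when any of 6 arrays was left out, with adjusted p from 0.0547 to 0.0682: brain differentiated 2, brain proliferative 2, spinal cord differentiated 1 and 2, and spinal cord proliferative 2 and 3. A second Fdft1 probe set also missed it (0.47, adjusted p = 0.0749).

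Hsd17b7, a sterol ketoreductase, had 10.004, 9.99 and 10.08 on the differentiated and 10.38, 9.61 and 9.30 on the proliferative spinal cord arrays, and 9.67, 9.50 and 9.52 on the differentiated and 10.29, 10.67 and 10.40 on the proliferative brain arrays. Proliferative spinal cord replicate 1 was the high array of a wide group. Hsd17b7 fell 1.86-fold in brain (log2 change -0.89, SE 0.21, adjusted p = 0.00288), and its spinal cord change of 0.26 (adjusted p = 0.34) became 0.57 (adjusted p = 0.00305) without that array. Of the other squalene to cholesterol genes, the demethylase Cyp51 and the late reductase Dhcr7 fell in brain by 0.58 and 0.53 on the log2 scale. Dhcr7 also fell in spinal cord, by 0.74 (SE 0.12, adjusted p = 0.000262). For Cyp51, a second probe set was lower in spinal cord (-0.45, adjusted p = 0.00697) where the brighter one was not called (-0.03). Sqle, the squalene epoxidase, Lss, which closes the ring, and Sc5d, a sterol desaturase, were not called in either tissue, with log2 changes between -0.28 and 0.19. Without proliferative spinal cord replicate 1, Sqle was higher in differentiated spinal cord (0.33, adjusted p = 0.0255). Sc5d's 2 further probe sets were each called lower in 1 tissue after differentiation, in spinal cord (-0.35, adjusted p = 0.0303) and in brain (-0.44, adjusted p = 0.012).

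**Figure D3:**
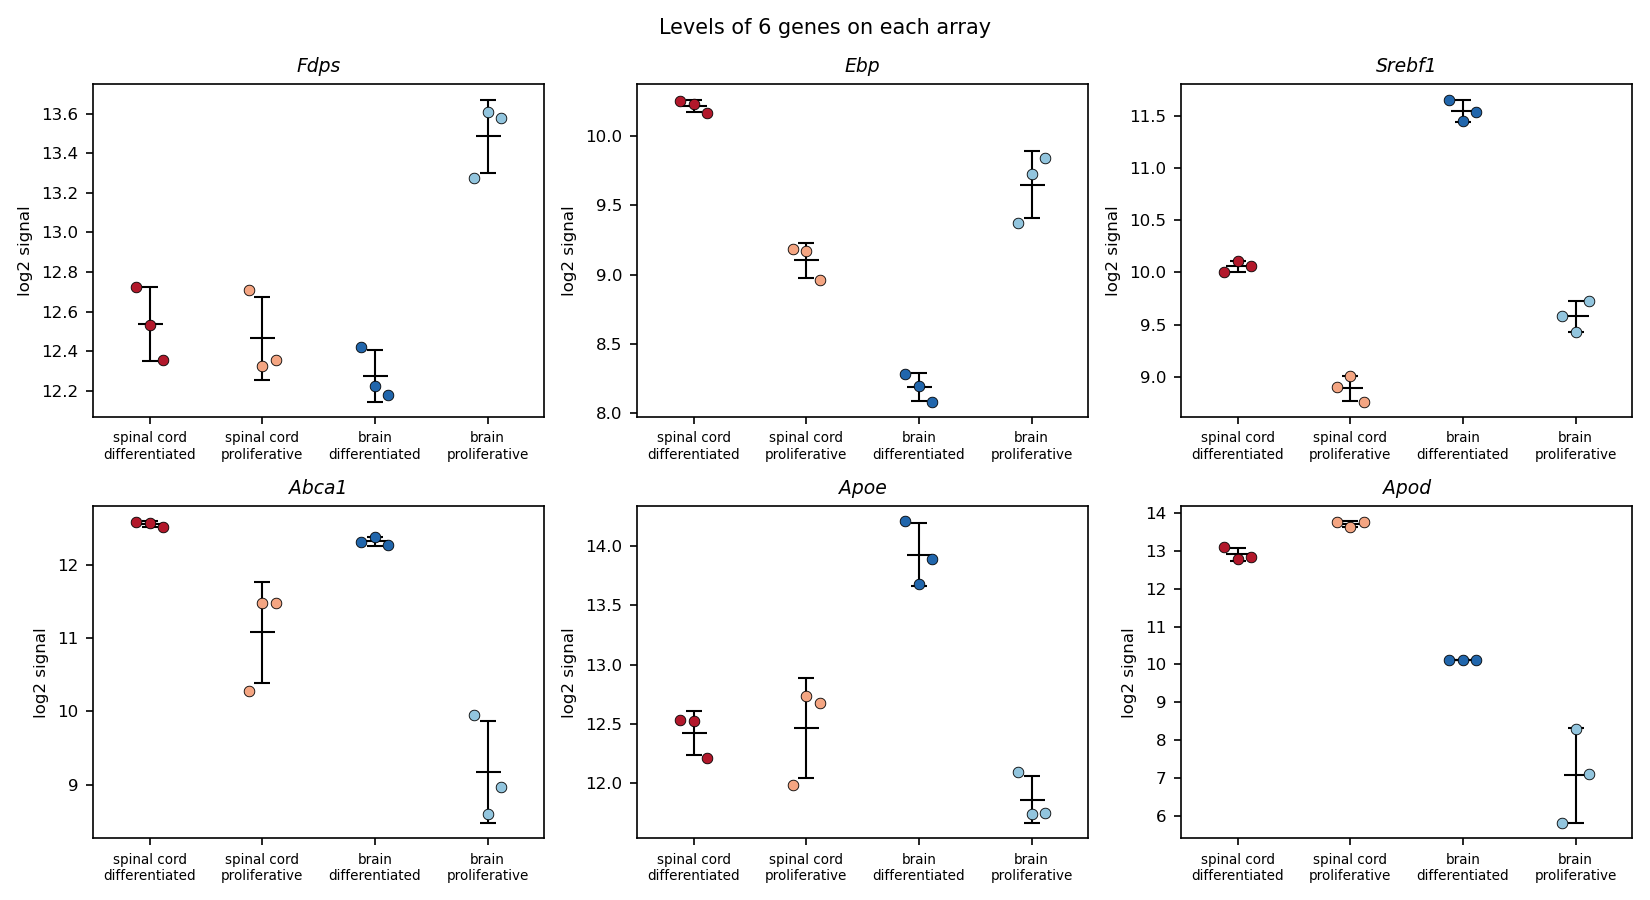
Log2 signal on each array is plotted for Fdps, Ebp, Srebf1, Abca1, Apoe and Apod in the 4 groups, with points for the 3 arrays and black bars for the mean and SD. Fdps is highest and the 3 export genes are lowest in proliferative brain cultures, Ebp has 4 separate levels, and each panel has its own log2 axis that does not start at 0.

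Among the genes that control synthesis, Srebf1 rose with differentiation in both tissues. It encodes SREBP-1, which mainly drives fatty acid genes and is itself a liver X receptor target. Srebf1 had 10.01, 10.11 and 10.06 on the differentiated and 8.90, 9.0 and 8.76 on the proliferative spinal cord arrays, and 11.66, 11.45 and 11.54 on the differentiated and 9.58, 9.43 and 9.73 on the proliferative brain arrays. All 4 groups were apart. The rise was 2.25-fold in spinal cord (log2 change 1.17, SE 0.11, adjusted p = 1.98e-06) and 3.92-fold in brain (log2 change 1.97, SE 0.11, adjusted p = 1.31e-08). Its difference of responses of -0.80 was called (SE 0.15, adjusted p = 0.000935), and a second probe set gave -0.64 (adjusted p = 0.0625).

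Srebf2, which encodes the SREBP that mainly drives cholesterol synthesis, fell slightly in both tissues. It had 10.12, 10.11 and 9.996 on the differentiated and 10.67, 10.40 and 10.29 on the proliferative spinal cord arrays, and 10.34, 10.28 and 10.31 on the differentiated and 10.47, 10.73 and 10.72 on the proliferative brain arrays. The fall was 0.38 in spinal cord (SE 0.11, adjusted p = 0.016) and 0.33 in brain (SE 0.11, adjusted p = 0.026) on the log2 scale, and the difference of responses was -0.04 (95% confidence interval -0.39 to 0.30). The spinal cord call was lost without proliferative spinal cord replicate 1 (-0.27, adjusted p = 0.0511) or differentiated spinal cord replicate 3 (-0.34, adjusted p = 0.0595), and under median centring (-0.30, adjusted p = 0.102). The brain call was lost without brain differentiated replicate 2 or 3 or brain proliferative replicate 2 or 3, with adjusted p from 0.065 to 0.0891.

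Insig2, a brake on SREBP release, had 10.61, 10.72 and 10.46 on the differentiated and 8.99, 9.36 and 9.35 on the proliferative spinal cord arrays, and 9.55, 9.42 and 9.41 on the differentiated and 9.14, 9.34 and 9.20 on the proliferative brain arrays. Differentiated spinal cord cultures lay above all others, and Insig2 rose 2.57-fold there (log2 change 1.36, SE 0.12, adjusted p = 1.76e-06). Its brain change of 0.23 was not called (adjusted p = 0.144), but a second probe set was called higher in brain (0.78, adjusted p = 0.00364). Insig1, the other brake and a classic SREBP target, had 11.84, 11.75 and 11.63 on the differentiated and 11.76, 11.14 and 11.11 on the proliferative spinal cord arrays, and 11.79, 11.49 and 11.51 on the differentiated and 11.77, 11.96 and 11.84 on the proliferative brain arrays. The spinal cord states overlapped through proliferative replicate 1, and the brain change of -0.26 (adjusted p = 0.179) was called without that array (adjusted p = 0.0361). The rise of Insig1 in spinal cord (0.40, SE 0.15, adjusted p = 0.047) was lost when any array other than brain differentiated replicate 1 or proliferative spinal cord replicate 1 was left out, with adjusted p from 0.053 to 0.183, and it was 0.62 without proliferative spinal cord replicate 1 (adjusted p = 0.000454). For Insig1 the difference of responses was 0.66 (SE 0.21, adjusted p = 0.0234), and 6 single arrays each ended that call, with adjusted p from 0.0532 to 0.0622: brain differentiated 2 and 3, brain proliferative 2, spinal cord differentiated 1, and spinal cord proliferative 2 and 3.

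Scap, the escort of the SREBPs, separated the tissues more than the states. It had 9.72, 9.69 and 9.54 on the differentiated and 10.11, 10.09 and 9.70 on the proliferative spinal cord arrays, and 10.65, 10.50 and 10.64 on the differentiated and 10.72, 10.69 and 10.81 on the proliferative brain arrays. All spinal cord arrays lay under all brain arrays, and Scap was 1.93-fold lower in spinal cord than in brain in the differentiated state (log2 difference -0.95, SE 0.12, adjusted p = 1.79e-05). It was 1.71-fold lower in the proliferative state (-0.77, SE 0.12, adjusted p = 0.000161). A second, dimmer Scap probe set had the call in the differentiated state (-0.70, adjusted p = 0.0174) and missed it in the proliferative state (-0.56, adjusted p = 0.0537). Its fall with differentiation in spinal cord (-0.32, SE 0.12, adjusted p = 0.042) was lost when any of 9 arrays was left out, with adjusted p from 0.0522 to 0.137. These were the 3 brain differentiated arrays, brain proliferative replicate 1, the 3 differentiated spinal cord arrays and proliferative spinal cord replicates 1 and 2. The dimmer probe set did not have this fall either (-0.16, adjusted p = 0.592), and it was lost under median centring (-0.24, adjusted p = 0.2).

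Lysosomal genes were highest in differentiated spinal cord cultures. Npc2, which binds cholesterol inside the lysosome and hands it on, had 13.45, 13.42 and 13.37 on the differentiated and 12.31, 12.78 and 12.61 on the proliferative spinal cord arrays, and 12.78, 12.55 and 12.64 on the differentiated and 12.06, 11.74 and 12.65 on the proliferative brain arrays. It rose 1.79-fold in spinal cord (log2 change 0.84, SE 0.18, adjusted p = 0.00202) without overlap. In brain the states overlapped, and the rise of 0.51 (SE 0.18, adjusted p = 0.032) was lost without brain differentiated replicate 1 or 3 or brain proliferative replicate 1 or 2, with adjusted p from 0.069 to 0.157. That rise of Npc2 in brain was also lost with each array centred on its median (0.36, adjusted p = 0.194). Lipa, the lysosomal lipase that frees cholesterol from esters, had 11.18, 10.99 and 11.07 on the differentiated and 9.93, 10.38 and 10.13 on the proliferative spinal cord arrays, and 10.44, 10.46 and 10.31 on the differentiated and 10.15, 10.03 and 10.51 on the proliferative brain arrays. Lipa rose 1.91-fold in spinal cord (log2 change 0.93, SE 0.14, adjusted p = 0.000109), and its brain change was 0.18 (adjusted p = 0.317). For Lipa the difference of responses was 0.76 (SE 0.19, adjusted p = 0.00649).

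Stard4, a carrier of cholesterol in the cytosol and an SREBP target, went with the synthesis genes in brain. It had 8.48, 8.97 and 8.90 on the differentiated and 9.36, 8.75 and 8.75 on the proliferative spinal cord arrays, and 8.57, 8.51 and 8.32 on the differentiated and 9.35, 9.82 and 9.35 on the proliferative brain arrays. It fell 2.05-fold in brain (log2 change -1.04, SE 0.20, adjusted p = 0.00068), without overlap, and its spinal cord change was -0.17 (adjusted p = 0.527), or 0.03 without proliferative spinal cord replicate 1. Its difference of responses of 0.87 (adjusted p = 0.0226) was lost when any of 6 arrays was left out, with adjusted p from 0.0522 to 0.058: brain differentiated 3, brain proliferative 2, spinal cord differentiated 2 and 3, and spinal cord proliferative 2 and 3. A second probe set gave 2.03 (adjusted p = 0.000279), and another, dimmer one gave -0.25 (adjusted p = 0.651). The dimmer probe set also missed the fall in brain and the lower Stard4 level in proliferative spinal cord than in proliferative brain cultures. The mean of all Stard4 probe sets missed the latter too (-0.46, adjusted p = 0.0541).

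In brain, export genes held the 3 largest changes of the 31 genes. Abca1, the pump that loads cholesterol onto lipid-poor apolipoproteins, had 12.59, 12.56 and 12.51 on the differentiated and 10.28, 11.47 and 11.48 on the proliferative spinal cord arrays, and 12.30, 12.38 and 12.26 on the differentiated and 9.94, 8.60 and 8.97 on the proliferative brain arrays. Both proliferative groups lay under both differentiated groups. Abca1 rose 2.78-fold in spinal cord (log2 change 1.47, SE 0.32, adjusted p = 0.00217) and 8.84-fold in brain (log2 change 3.14, SE 0.32, adjusted p = 3.42e-06), with a difference of responses of -1.67 (SE 0.45, adjusted p = 0.00887). Without proliferative spinal cord replicate 1, the low array of its group, Abca1 rose by 1.08 in spinal cord and its difference of responses was -2.07, both called. Its other 3 probe sets had the same calls, with rises of 0.78 to 1.59 in spinal cord and 2.23 to 3.66 in brain. Abca1 is shown as the export gene with the largest rise in brain, over chr5:72596424-72596723 on the minus strand of the RefSeq GRCr8 assembly, with capitals on the GC box and the E-box:
Abca1 promoter: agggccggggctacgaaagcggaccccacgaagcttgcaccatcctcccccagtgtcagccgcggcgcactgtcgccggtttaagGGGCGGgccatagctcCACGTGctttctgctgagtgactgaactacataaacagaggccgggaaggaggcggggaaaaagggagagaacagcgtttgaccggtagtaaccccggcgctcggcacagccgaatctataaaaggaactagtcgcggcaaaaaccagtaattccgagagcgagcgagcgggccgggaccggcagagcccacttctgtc

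Abcg1, a pump that passes cholesterol on to larger lipoproteins, had 9.28, 9.27 and 9.30 on the differentiated and 9.38, 9.77 and 9.33 on the proliferative spinal cord arrays, and 8.79, 8.75 and 8.67 on the differentiated and 7.91, 7.33 and 7.33 on the proliferative brain arrays. It rose 2.32-fold in brain (log2 change 1.22, SE 0.17, adjusted p = 5.26e-05), while its spinal cord change was -0.21 (adjusted p = 0.348). The difference of responses was -1.43 (SE 0.24, adjusted p = 0.000329). A second, faint Abcg1 probe set, under the 40th percentile on all brain arrays, missed the call in brain (0.96, adjusted p = 0.173) and that of the difference of responses (-1.36, adjusted p = 0.182). Soat1, which stores cholesterol as esters, ranged from 9.04 to 10.55, and its brightest probe set moved in opposite directions in the tissues. It fell by 0.49 in spinal cord (SE 0.14, adjusted p = 0.0114) and rose by 0.47 in brain (SE 0.14, adjusted p = 0.0123). A second probe set had the rise in brain (0.53, adjusted p = 0.0363) and not the fall in spinal cord (-0.25, adjusted p = 0.322). The spinal cord call was lost without differentiated spinal cord replicate 2 (-0.41, adjusted p = 0.0531), and the brain call without brain differentiated replicate 2 (0.41, adjusted p = 0.0546) or brain proliferative replicate 2 (0.37, adjusted p = 0.056). Neither passed with each array centred on its median (-0.41, adjusted p = 0.0569 in spinal cord, and 0.31, adjusted p = 0.119 in brain).

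Apoe, the main lipid carrier of the brain, had 12.53, 12.53 and 12.21 on the differentiated and 11.98, 12.73 and 12.68 on the proliferative spinal cord arrays, and 14.21, 13.68 and 13.90 on the differentiated and 12.09, 11.74 and 11.75 on the proliferative brain arrays. Differentiated brain cultures lay above all others. Apoe rose 4.20-fold in brain (log2 change 2.07, SE 0.19, adjusted p = 1.44e-06), and its spinal cord change was -0.04 (95% confidence interval -0.45 to 0.37). The difference of responses was -2.11 (SE 0.27, adjusted p = 3.38e-05). A second Apoe probe set lay under the 40th percentile on all 12 arrays and was not tested by itself, and the mean of both had no call, with a rise of 1.14 in brain (adjusted p = 0.057) and a difference of responses of -0.74 (adjusted p = 0.385). Astrocytes are a main source of Apoe, and the astrocyte list was also highest in differentiated brain cultures, where 8 of its 9 measured genes rose. In spinal cord 6 of these 9 rose and 3 fell, while Apoe was not called. A part of the astrocyte markers in the values of Apoe was not tested.

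Apod, a small lipid carrier of the lipocalin family, had 13.09, 12.79 and 12.82 on the differentiated and 13.75, 13.62 and 13.75 on the proliferative spinal cord arrays, and 10.11, 10.12 and 10.12 on the differentiated and 5.82, 8.31 and 7.11 on the proliferative brain arrays. No groups overlapped, although the proliferative brain arrays were wide (SD 1.25) and replicate 1 lay under that array's 40th percentile. Apod rose 8.21-fold in brain (log2 change 3.04, SE 0.40, adjusted p = 3.75e-05), with a log2 change of 2.41 without brain proliferative replicate 1 and 3.65 without replicate 2. In spinal cord its change of -0.80 was not called (adjusted p = 0.132), and it was called without brain proliferative replicate 1 (adjusted p = 0.0108) or 2 (adjusted p = 0.0146). Nr1h3, which encodes a liver X receptor, was faint at 5.64 to 6.54 and was called in none of the 5 contrasts, and all 3 proliferative brain arrays had it under their 40th percentiles.

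Between the tissues, proliferative spinal cord cultures had lower synthesis transcripts than proliferative brain cultures. Of the 31 genes 20 were lower and 5 higher, where 22.8% of all genes were lower and 21.2% higher. All synthesis genes but Lss were lower, 16 of 17, with a median log2 difference of -0.60 against -0.04 over all genes. The 5 higher genes were Soat1, Abca1, Abcg1, Apoe and Apod. Without proliferative spinal cord replicate 1 the counts were 21 lower and 6 higher, with Srebf2 (-0.30, adjusted p = 0.0331) and Npc2 (0.55, adjusted p = 0.0307) added, and without proliferative spinal cord replicate 2 or proliferative brain replicate 2 they were 15 lower and 4 higher. Npc2 was also called without brain proliferative replicate 3 (0.67, adjusted p = 0.00205). With each array centred on its median, 21 members were lower and 4 higher, while the median of all genes moved to -0.25 and the share of higher calls to 30.1%, against 48.2% as deposited. This contrast and the brain differentiation contrast share the 3 proliferative brain arrays, so their values are not separate evidence. Oligodendrocyte markers were higher in proliferative spinal cord for 11 of 11 genes, microglia and macrophage markers for 10 of 10 tested, fibroblast, meninges and mural markers for 8 of 10 and oligodendrocyte precursor markers for 5 of 6, while 5 of 10 neuron markers were lower and 1 higher. Proliferation markers were higher for 5 of 7 genes and lower for none. Of 7 neural stem and progenitor markers 4 were lower and none higher, and of 9 astrocyte markers 4 were higher and 4 lower.

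Mvd was 2.01-fold lower in proliferative spinal cord (log2 difference -1.0, SE 0.14, adjusted p = 6.52e-05), Fdps 2.03-fold lower (-1.02, SE 0.13, adjusted p = 3.67e-05) and Tm7sf2 2.33-fold lower (-1.22, SE 0.17, adjusted p = 8.11e-05). Tm7sf2 had the largest such difference of the synthesis genes. Apod was 98.7-fold higher (6.62, SE 0.40, adjusted p = 4.86e-08), but this log2 difference was 5.99 without brain proliferative replicate 1 and 7.24 without replicate 2. Abcg1 was 3.92-fold (1.97, SE 0.17, adjusted p = 9.83e-07) and Abca1 3.75-fold higher (1.91, SE 0.32, adjusted p = 0.000363). Soat1 was 2.15-fold higher (1.10, SE 0.14, adjusted p = 2.96e-05). The weaker calls were lost when single arrays were left out. Acat2, Dhcr7, Hsd17b7, Insig1, Stard4 and Apoe each lost theirs without 2 to 4 of the arrays, with adjusted p from 0.0518 to 0.164. Brain proliferative replicate 2 and spinal cord proliferative replicate 2 ended all 6 of these calls, spinal cord proliferative replicate 3 all but that of Acat2, brain proliferative replicate 3 that of Apoe and brain differentiated replicate 2 that of Stard4. The array last named lies outside this contrast, and without it the Stard4 difference stayed at -0.55 (adjusted p = 0.0528). Apoe's also ended with each array centred on its median (0.40, adjusted p = 0.124). As deposited the Apoe difference was 0.61, and without spinal cord proliferative replicate 1 it was 0.85.

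In the differentiated state 7 of the 31 genes were higher and 5 lower in spinal cord than in brain, where 22.3% of all genes were higher and 22.4% lower, so the counts lay near the shares over all genes. No gene before squalene was called, with differences of -0.18 to 0.26. Ebp was 4.08-fold higher in differentiated spinal cord (log2 difference 2.03, SE 0.13, adjusted p = 4.11e-08), Insig2 2.20-fold (1.14, SE 0.12, adjusted p = 5.96e-06) and Apod 6.89-fold (2.78, SE 0.40, adjusted p = 8.12e-05). Nsdhl, Npc2, Lipa and Abcg1 were also higher, by 0.51 to 0.75 on the log2 scale, and the call of Abcg1 was lost without brain differentiated replicate 3 (0.51, adjusted p = 0.0616). Second probe sets of Nsdhl (0.19, adjusted p = 0.226) and Abcg1 (0.46, adjusted p = 0.544) were not called. Sc5d was not called by its brightest probe set (-0.18, adjusted p = 0.361). It was lower by another probe set (-0.69, adjusted p = 0.000382) and by the mean of its probe sets (-0.39, adjusted p = 0.00923). A second Stard4 probe set was also called where the brightest was not. Srebf1 was 2.81-fold lower (-1.49, SE 0.11, adjusted p = 1.21e-07) and Apoe 2.84-fold lower (-1.51, SE 0.19, adjusted p = 2.3e-05), and the mean of both Apoe probe sets was not called (-0.45, adjusted p = 0.463). Scap, Dhcr7 and Msmo1 were lower too, and the call of Msmo1 (-0.34, adjusted p = 0.0161) was lost without differentiated spinal cord replicate 2 (-0.28, adjusted p = 0.0737). The Msmo1 call was also lost with each array centred on its median (-0.32, adjusted p = 0.0661). Hsd17b7, not called as deposited (0.47, adjusted p = 0.0875), was higher without proliferative spinal cord replicate 1 or 3, with adjusted p of 0.00474 and 0.0429. Astrocyte markers were lower in differentiated spinal cord for 8 of 9 genes and higher for 1 (Gja1). Oligodendrocyte precursor markers were lower for 5 of 6 and higher for 1 (Pdgfra). Neuron markers were lower for 6 of 10 and neural stem and progenitor markers for 6 of 7. Fibroblast, meninges and mural markers were higher for 9 of 10, and microglia and macrophage markers for 5 of 10 tested. Of 11 oligodendrocyte markers 2 were higher and 1 lower, and no proliferation marker was called.

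**Figure D4:**
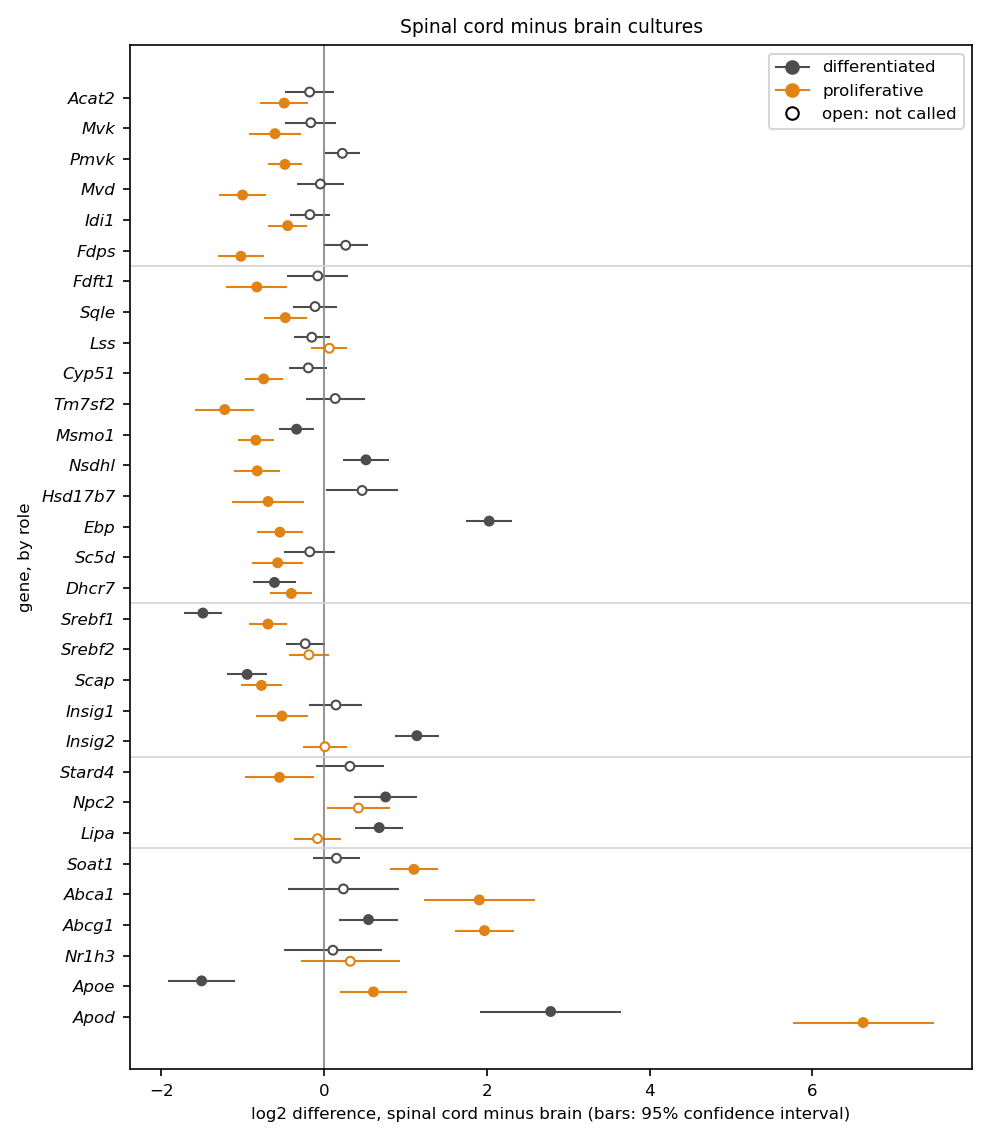
Each gene has its log2 difference, spinal cord minus brain, in differentiated (grey, above) and proliferative (orange, below) cultures, with 95% confidence intervals from the limma model, and open circles mark differences that were not called. Orange points lie left of 0 for 16 of 17 synthesis genes and right of 0 for the export genes, with Apod at 6.62, while grey points of the genes before squalene lie within 0.26 of 0.

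Genes near these in lipid metabolism were counted in 3 further lists. Of the 20 genes of fatty acid synthesis and other SREBP targets, 12 rose and 3 fell in brain with differentiation, where 24.1% of all genes rose and 28.5% fell. In spinal cord 2 rose and 5 fell, where 20.9% of all genes rose and 22.6% fell, so the falls lay near that share. In brain Gpam, which starts glycerolipid synthesis, had 8.80, 9.51 and 9.31 in differentiated and 7.69, 7.44 and 6.64 in proliferative cultures (log2 change 1.95, SE 0.27, adjusted p = 4.94e-05). Aldoc, a glycolytic enzyme that is also an astrocyte marker, rose 7.22-fold in brain (2.85, SE 0.24, adjusted p = 7.73e-07). Tmem97, a sterol-regulated membrane protein, fell 2.55-fold in brain (-1.35, SE 0.20, adjusted p = 9.45e-05). In spinal cord Scd, the desaturase of fatty acids, had 11.89, 11.77 and 11.67 in differentiated and 10.48, 10.02 and 9.97 in proliferative cultures (1.62, SE 0.16, adjusted p = 2.98e-06). The difference of responses was negative for 13 of the 20 genes and positive for 3, where 21.2% of all genes were called negative and 23.7% positive.

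Of 45 tested genes further along the cholesterol pathway, 19 rose and 7 fell in brain, where 24.1% of all genes rose and 28.5% fell, and 16 rose and 8 fell in spinal cord, where 20.9% rose and 22.6% fell. The falls were no more frequent than over all genes in either tissue. Lcat, which esterifies cholesterol on lipoproteins, had 10.83, 10.47 and 10.47 in differentiated and 6.96, 6.95 and 7.0 in proliferative brain cultures, a 12.3-fold rise (log2 change 3.62, SE 0.17, adjusted p = 3.47e-09). Clu, another lipid-carrying secreted protein, rose 5.52-fold in brain (2.46, SE 0.36, adjusted p = 7.95e-05) and 3.87-fold in spinal cord (1.95, SE 0.36, adjusted p = 0.000653). Apoc1, an apolipoprotein, was under the 40th percentile on all proliferative brain arrays and rose at least 4.28-fold in brain (adjusted p = 0.000389), the bound being set by the mean of those percentiles. Cyp7b1, an oxysterol hydroxylase, was under the 40th percentile on all proliferative spinal cord arrays and rose at least 6.52-fold there (adjusted p = 5.13e-08). Mylip, a liver X receptor target that sends lipoprotein receptors to degradation, had 10.14, 10.16 and 10.10 in differentiated and 7.42, 8.70 and 8.13 in proliferative spinal cord cultures (2.05, SE 0.34, adjusted p = 0.000279). The isoprenoid branch, which uses the products of Fdps for other ends, had 2 genes higher and 4 lower of 12 tested in brain and 3 higher and 3 lower in spinal cord, counts near those same shares over all genes. In that branch Fnta, a subunit of the enzymes that attach isoprenoids to proteins, rose 2.40-fold in brain (1.26, SE 0.09, adjusted p = 8.88e-08).

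Promoter letters were counted as a description in the RefSeq GRCr8 windows of 26 of the 31 genes. Pmvk, Fdft1, Sqle, Stard4 and Abcg1 were not matched. The CCAAT box (CCAAT, both strands), read by the factor NF-Y that works beside SREBPs, was found in 19 of 26 genes, or 73.1%, and in 39.6% of all 27457 genes with a window. The GC box (GGGCGG) was found in 20 of 26 genes, or 76.9%, and in 36.0% of all genes, or 44.1% of protein-coding ones. The E-box (CACGTG) was found in 4 genes, or 15.4%, and in 7.08% of all genes. The sterol regulatory element written as TCACNCCAC was in none of the 26 windows and in 1.25% of all genes, and 2 copies of AGGTCA parted by any 4 bases, the letters of a liver X receptor element, were in none of the 26 and in 2 of all 27457 genes, so that their absence here says nothing about these genes. No match says only that these letters are not in these windows. The windows printed above hold 2 CCAAT boxes and 1 GC box for Fdps, and 1 GC box and 1 E-box for Abca1, with no motif overlapping another.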

How the data were processed

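Total RNA of 12 samples was labelled with a 3′ IVT kit and hybridised to Rat230_2 arrays, per the labels' protocols. The authors deposited 1 log2 signal for each probe set and array. The submitters' processing notes name MAS5 and affy, without versions. On the linear scale the mean of every array, trimmed by 2% at each end, was 500, so each array had been scaled by itself and no gene had been centred. Array medians were 6.87 to 7.22. Scanner output was not used.

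Of 31099 probe sets 57 controls were left out, and a probe set was tested where it exceeded an array's own 40th percentile (5.91 to 6.41) on 3 or more of the 12 arrays, which kept 20834. Among the 31042 others, the annotation gave 20826 a single symbol, 436 several and 9780 none, and 20758 of the first matched a current gene by the GRCr8 table of names. The probe set with the highest mean stood for its gene. A group whose 3 arrays all lay under that percentile was treated as dim, and folds against it are bounds. 1 linear model with a mean per group was fitted with limma 3.58.1 in R 4.3.3 (lmFit, eBayes with trend, 8 residual degrees of freedom), with Benjamini-Hochberg adjusted p-values over the probe sets tested and a threshold of 0.05. It was tested on simulated data. Values printed by array were chosen by size of change within each role, and genes of further lists by the largest change. The members, lists and this rule were chosen with earlier results of these data known. The number of arrays limits the precision. The replicate numbers did not pair arrays: deviations of same-numbered arrays correlated at -0.12 to 0.05. Alternatives were a replicate block, leaving out each array, median centring, quantile normalization, a pseudocount, no filter, no trend and the mean of a gene's probe sets. Figures were drawn in Python 3.11.15.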

Additional observations from a re-analysis of the deposited data

Results flagged for a closer look

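For 20 of the 31 genes the change with differentiation differed between spinal cord and brain by the limma test of the difference itself, which is why they are listed here. It was positive for 14 and negative for 6, where 23.7% of all genes tested were called positive and 21.2% negative. Each value is the log2 change in spinal cord minus that in brain. Before squalene it was 0.71 for Pmvk, 0.96 for Mvd and 1.29 for Fdps. From squalene to cholesterol it was 0.75 for Fdft1, 0.55 for Cyp51, 1.36 for Tm7sf2, 0.50 for Msmo1, 1.34 for Nsdhl, 1.16 for Hsd17b7 and 2.57 for Ebp. Among control, carrier and lysosomal genes it was 0.66 for Insig1, 1.13 for Insig2, 0.87 for Stard4 and 0.76 for Lipa, and -0.80 for Srebf1. Among esterification and export genes it was -0.95 for Soat1, -1.67 for Abca1, -1.43 for Abcg1, -2.11 for Apoe and -3.84 for Apod. Ebp, Nsdhl and Soat1 were called in both tissues, in opposite directions, and second probe sets of Nsdhl and Soat1 were not called in spinal cord. The difference of responses of Fdft1, Insig1 and Stard4 each lost its call when any of 6 arrays was left out. Second probe sets of Fdft1 and Srebf1, a faint one of Abcg1 and a dimmer one of Stard4 missed that call. The mean of both Apoe probe sets missed it too. The value of Apod was -3.21 without brain proliferative replicate 1 and -4.46 without replicate 2. Dixon's test of an outlying array was not run on these groups of 3 arrays.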

How the results depend on the processing

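Of the 10 counts of called genes, 1 moved by over 1.5 times under any alternative other than leaving out an array: with each array centred on its median, 3 genes fell with differentiation in spinal cord, against 6 as deposited. No change of a gene in a contrast reversed as a called value under any of the alternatives run. When each array was left out in turn, the genes that rose in brain numbered 5 to 8 and those that fell 13 to 16. In spinal cord 8 to 11 rose and 4 to 7 fell. In proliferative cultures 4 to 6 were higher in spinal cord than in brain and 15 to 21 lower, and in differentiated cultures 6 to 8 were higher and 4 to 5 lower. The difference of responses was positive for 11 to 17 and negative for 6 throughout. With the replicate number as a block, 152 of 155 changes stayed on their side of the threshold. The block ended the calls of Mvk in brain (adjusted p = 0.0607), Scap in spinal cord (adjusted p = 0.0545) and Stard4 between proliferative cultures (adjusted p = 0.0542), with 7 rising and 14 falling in brain. Same-numbered arrays had a median correlation of -0.02 over 18 pairs. Averaging all probe sets of a gene ended all 4 calls of Apoe, whose second probe set was dim: its rise in brain (1.14, adjusted p = 0.057), its differences between tissues in differentiated (-0.45, adjusted p = 0.463) and proliferative cultures (0.29, adjusted p = 0.649) and its difference of responses (-0.74, adjusted p = 0.385), and 3 genes had too dim a mean to be tested so. MAS5 values of dim probe sets, such as Nr1h3's, have little precision.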
